A study of Mus musculus with 27 samples.

Results

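The 10 genes described here encode the core of hepatic de novo lipogenesis, the making of fatty acids from carbohydrate carbon. They were chosen by name from the 55414 genes of the count table, through the Ensembl identifier of each, and all 10 passed the filter on low counts. All are protein-coding, and positions are those of the GRCm39 Ensembl annotation. The members were Fasn (ENSMUSG00000025153, chr11:120696672-120715995), Acaca (ENSMUSG00000020532, chr11:84020476-84292477), Acacb (ENSMUSG00000042010, chr5:114284307-114388822), Acly (ENSMUSG00000020917, chr11:100367165-100440756), Scd1 (ENSMUSG00000037071, chr19:44382894-44399154), Elovl6 (ENSMUSG00000041220, chr3:129326004-129432144), Me1 (ENSMUSG00000032418, chr9:86462646-86578104), Srebf1 (ENSMUSG00000020538, chr11:60089913-60113407), Pnpla3 (ENSMUSG00000041653, chr15:84051943-84073723) and Thrsp (ENSMUSG00000035686, chr7:97062139-97066937).

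Liver RNA of 27 female Balb/c mice, 8 weeks old at the start, was sequenced in 8 groups. All mice had intraperitoneal injections for 2 weeks, either of olive oil or of CCl4 (carbon tetrachloride, a hepatotoxin that causes fibrosis). The mice given oil were the control group (tail vein PBS and, per the study's methods, gavage of the 4MU vehicle, n = 4), 4MU (4-methylumbelliferone, an inhibitor of hyaluronan synthesis, by daily gavage, n = 3), siLuc-LNP (lipid nanoparticles with an siRNA against luciferase, a non-targeting control, by tail vein, n = 3) and siHAS2-LNP (the same route with an siRNA against hyaluronan synthase 2, n = 3). The mice given CCl4 were the CCl4 group (no co-treatment, n = 2), CCl4+4MU (n = 4), CCl4+siLuc-LNP (n = 4) and CCl4+siHAS2-LNP (n = 4), and 4MU and the nanoparticles were begun before the first CCl4 injection. Total counts were 7044386 to 29425937 per library, with the lowest in CCl4+siHAS2-LNP mouse 4. Has2, the target of the siRNA, had no counts in 25 of the 27 libraries and at most 2, so its knockdown could not be checked in whole liver. Hepatocyte genes such as Alb were abundant in every library (lowest 58085 CPM, the count divided by the TMM-scaled library total and set to a common total).

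In hepatocytes, citrate leaves the mitochondria and is cleaved to acetyl-CoA, which is carboxylated to malonyl-CoA and built up by fatty acid synthase to palmitate, with NADPH as the reductant. Elongation and desaturation then give the monounsaturated fatty acids that are stored as triglyceride. The transcription factor SREBP-1c, encoded by Srebf1 and driven by insulin and LXR, works with the glucose-responsive factor ChREBP on the genes of this pathway, which are high after feeding and low in fasting.

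The 250 bases before the start of 4 members are shown because these genes passed the threshold in at least 1 comparison below. They are RefSeq promoter windows (table build GRCm38.p6), each matched letter for letter to a single place in GRCm39, whose coordinates are given, and are written 5′ to 3′ on the strand of the gene. In the Ensembl annotation the gene begins upstream of the RefSeq start used here, so that the Fasn stretch lies inside the annotated gene and the other 3 overlap its first bases. Capitals mark CCAAT (bound by NF-Y) or GGGCGG (bound by Sp1 family factors) on either strand.
Fasn (chr11:120715374-120715623, minus strand): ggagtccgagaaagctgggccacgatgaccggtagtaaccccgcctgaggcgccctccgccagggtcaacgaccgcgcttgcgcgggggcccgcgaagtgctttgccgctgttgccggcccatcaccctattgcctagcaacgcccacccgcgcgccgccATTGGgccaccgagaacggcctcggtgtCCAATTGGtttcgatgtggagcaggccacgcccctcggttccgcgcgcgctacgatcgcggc
Me1 (chr9:86577968-86578217, minus strand): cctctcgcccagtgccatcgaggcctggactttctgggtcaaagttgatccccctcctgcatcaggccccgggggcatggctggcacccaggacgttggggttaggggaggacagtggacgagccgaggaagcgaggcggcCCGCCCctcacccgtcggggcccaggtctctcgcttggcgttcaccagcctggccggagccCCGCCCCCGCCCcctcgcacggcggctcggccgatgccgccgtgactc
Pnpla3 (chr15:84051767-84052016, plus strand): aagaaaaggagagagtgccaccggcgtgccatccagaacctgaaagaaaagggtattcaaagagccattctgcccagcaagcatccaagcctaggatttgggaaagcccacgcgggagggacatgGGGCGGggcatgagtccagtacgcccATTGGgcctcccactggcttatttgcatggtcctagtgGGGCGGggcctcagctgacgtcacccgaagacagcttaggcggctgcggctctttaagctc
Thrsp (chr7:97066758-97067007, minus strand): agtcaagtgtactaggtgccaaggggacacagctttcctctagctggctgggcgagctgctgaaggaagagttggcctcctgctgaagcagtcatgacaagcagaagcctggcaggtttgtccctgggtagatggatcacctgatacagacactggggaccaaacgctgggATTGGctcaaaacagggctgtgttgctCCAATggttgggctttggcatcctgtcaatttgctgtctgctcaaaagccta

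Windows were found for 9 of the 10 members, 12 windows in all, and Scd1 was not in the table. Over the full window, which runs to 50 bases after the start, CCAAT was present in 7 of the 9 members and in 41.1% of all 27025 genes of the table. Fasn held 3 copies, at 90, 62 and 59 bases before the start, the last overlapping its neighbour on the other strand. Thrsp held 2 copies at 79 and 52 bases, and Pnpla3 held 1 copy at 99 bases. GGGCGG was present in 4 members (Acly, Me1, Srebf1 and Pnpla3), against 38.2% of all genes. The strict sterol regulatory element searched, TCACNCCAC, and the palindromic E-box CACGTG were in none of the 12 windows, against 1.44% and 8.09% of all genes. These are matches of letters and not measured sites.

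Per kilobase of the canonical transcript, Scd1, the desaturase that makes oleate and palmitoleate, had the highest level, with a median of 353 CPM per kb over the 27 libraries (range 22.2 to 2504). Thrsp, which encodes Spot 14, a protein that promotes lipogenesis, followed with a median of 89.8 CPM per kb. Srebf1 had 75.5, Acly, the enzyme that cleaves citrate, 47.7, Fasn, the fatty acid synthase, 38.1, and Me1, the malic enzyme that supplies NADPH, 16.6 CPM per kb. Elovl6, which lengthens palmitate to stearate, had 9.29 CPM per kb, Acaca, the acetyl-CoA carboxylase of the cytosol, 8.10, Acacb, its counterpart at the mitochondrial surface whose malonyl-CoA restrains fatty acid oxidation, 5.15, and Pnpla3, a lipid droplet hydrolase, 1.27. Neighbours in this order overlapped: Scd1 exceeded Thrsp and Acacb exceeded Pnpla3 in 24 of 27 libraries each, while Thrsp exceeded Srebf1 in 19, Fasn exceeded Me1 in 21 and Elovl6 exceeded Acaca in 17 libraries. With all annotated exons as the length, Srebf1 ranked above Thrsp, Fasn above Acly and Acacb above Acaca.

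**Figure D1:**
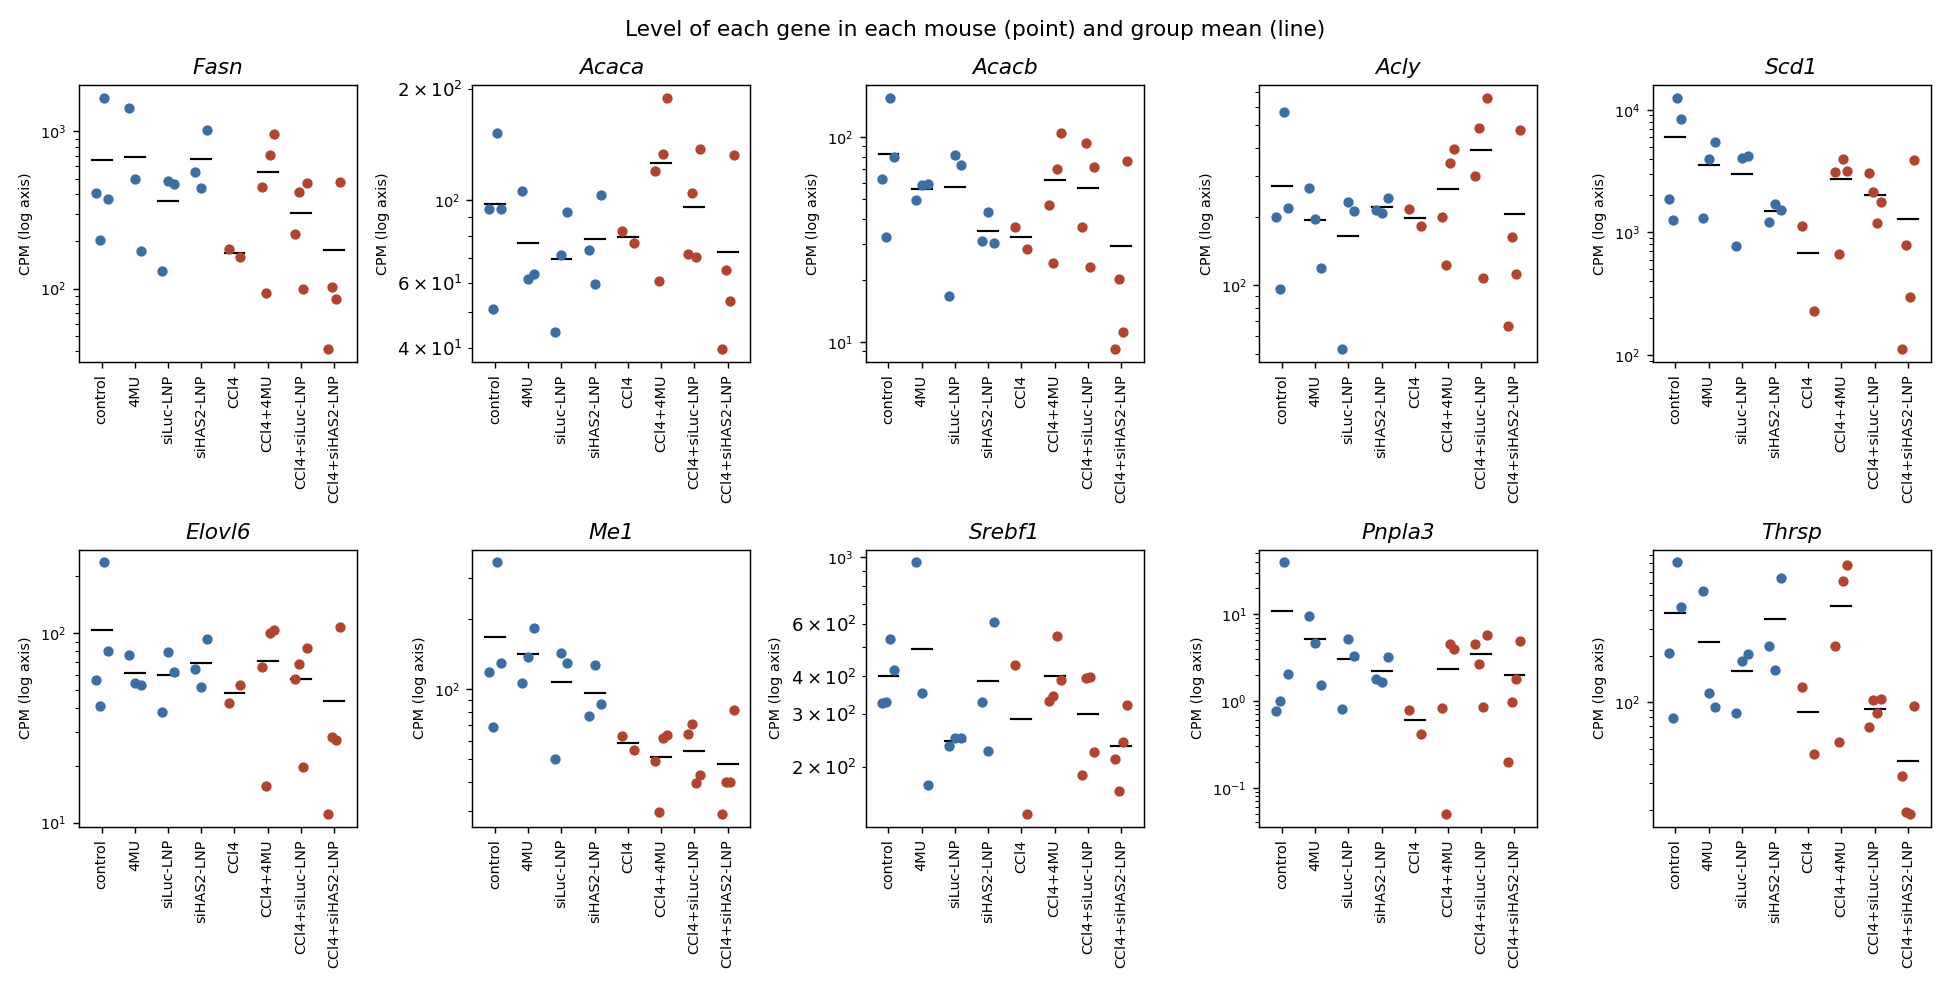
Level of each of the 10 genes in CPM (log axis) by group. Points are single mice, blue for oil and red for CCl4, and lines are group means. Me1 reached at most 81.6 CPM in the red points, and control mouse 3 was the highest control point in all 10 panels.

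Whether CCl4 changed the pathway was asked first over all 14 mice given CCl4 against all 13 given oil, each group with equal weight. Me1, Thrsp and Fasn fell and no member rose, that is 3 of 10 members past the threshold (edgeR quasi-likelihood test, Benjamini-Hochberg over 14114 genes), where 51.9% of all tested genes passed it in either direction. The share of members was thus below that of all genes. The median log2 fold change was -0.75 over the members and -0.02 over all genes, with 8 members negative and 2 positive. Without control mouse 1, control mouse 2, siLuc-LNP mouse 1 or CCl4+siHAS2-LNP mouse 4, each left out alone, 5 members passed. All p-values measure the spread between these mice. In bulk RNA, fewer hepatocytes and less RNA per hepatocyte cannot be told apart.

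Me1 had the lowest adjusted p of the members. In mice given oil its level ranged from 50.2 through a median of 126 to 350 CPM (n = 13), and in mice given CCl4 from 29.1 through 51.9 to 81.6 CPM (n = 14). The groups overlapped, because siLuc-LNP mouse 1 (50.2), control mouse 2 (69.0) and siHAS2-LNP mouse 1 (76.5 CPM) lay within the CCl4 range. Me1 fell by 1.25 on the log2 scale (SE 0.23, edgeR adjusted p = 6.02e-05), and all 35 alternative settings kept the call. Its log2 fold change was -1.504 in CCl4 against control, -1.47 with 4MU, -0.98 with siLuc-LNP and -1.03 with siHAS2-LNP, of which the first 2 passed the threshold.

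Thrsp ranged from 79.8 through 205 to 812 CPM in mice given oil and from 18.9 through 89.7 to 784 CPM in mice given CCl4. Its high values under CCl4 were all in the CCl4+4MU group, where mice 1, 3 and 4 had 233, 610 and 784 CPM. No other mouse given CCl4 exceeded CCl4 mouse 1 (126.5 CPM). Thrsp fell by 1.31 on the log2 scale (SE 0.41, edgeR adjusted p = 0.00906), again under all 35 alternatives. The co-treatments did not share this direction: the log2 fold change was -2.13 (SE 0.96) in CCl4 against control, -0.80 (SE 0.76) with siLuc-LNP and -3.08 (SE 0.80) with siHAS2-LNP, but 0.77 (SE 0.78) in CCl4+4MU against 4MU. Of these, that with siHAS2-LNP passed the threshold.

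Fasn ranged from 129 through 462 to 1639.7 CPM with oil and from 41.2 through 202 to 959 CPM with CCl4. Most of the range was shared by both conditions. Fasn fell by 1.11 on the log2 scale (SE 0.43, edgeR adjusted p = 0.0311), but the call was lost in 7 of 35 alternatives, with adjusted p of 0.0527 to 0.0935. These were scaling without TMM and leaving out control mouse 3, 4MU mouse 1, CCl4 mouse 1, CCl4 mouse 2, siHAS2-LNP mouse 3 or siLuc-LNP mouse 2.

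The other 7 members did not pass the threshold over all groups. Scd1 had a median of 1479.5 CPM with CCl4 and 1881 with oil (log2 fold change -1.08, SE 0.46, edgeR adjusted p = 0.0530), and DESeq2 did call it. Pnpla3 had 1.37 and 2.04 CPM (-1.38, SE 0.61, adjusted p = 0.0598). The 2 enzymes upstream of Fasn had values close to each other in both conditions, with medians of 207 CPM (CCl4) and 211 CPM (oil) for Acly and 79.99 and 73.5 CPM for Acaca. Their log2 fold changes were 0.28 (SE 0.32) and 0.19 (SE 0.20). Those of Acacb, Elovl6 and Srebf1 were -0.38, -0.41 and -0.30, with adjusted p of 0.335, 0.295 and 0.269 in the same fit.

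**Figure D2:**
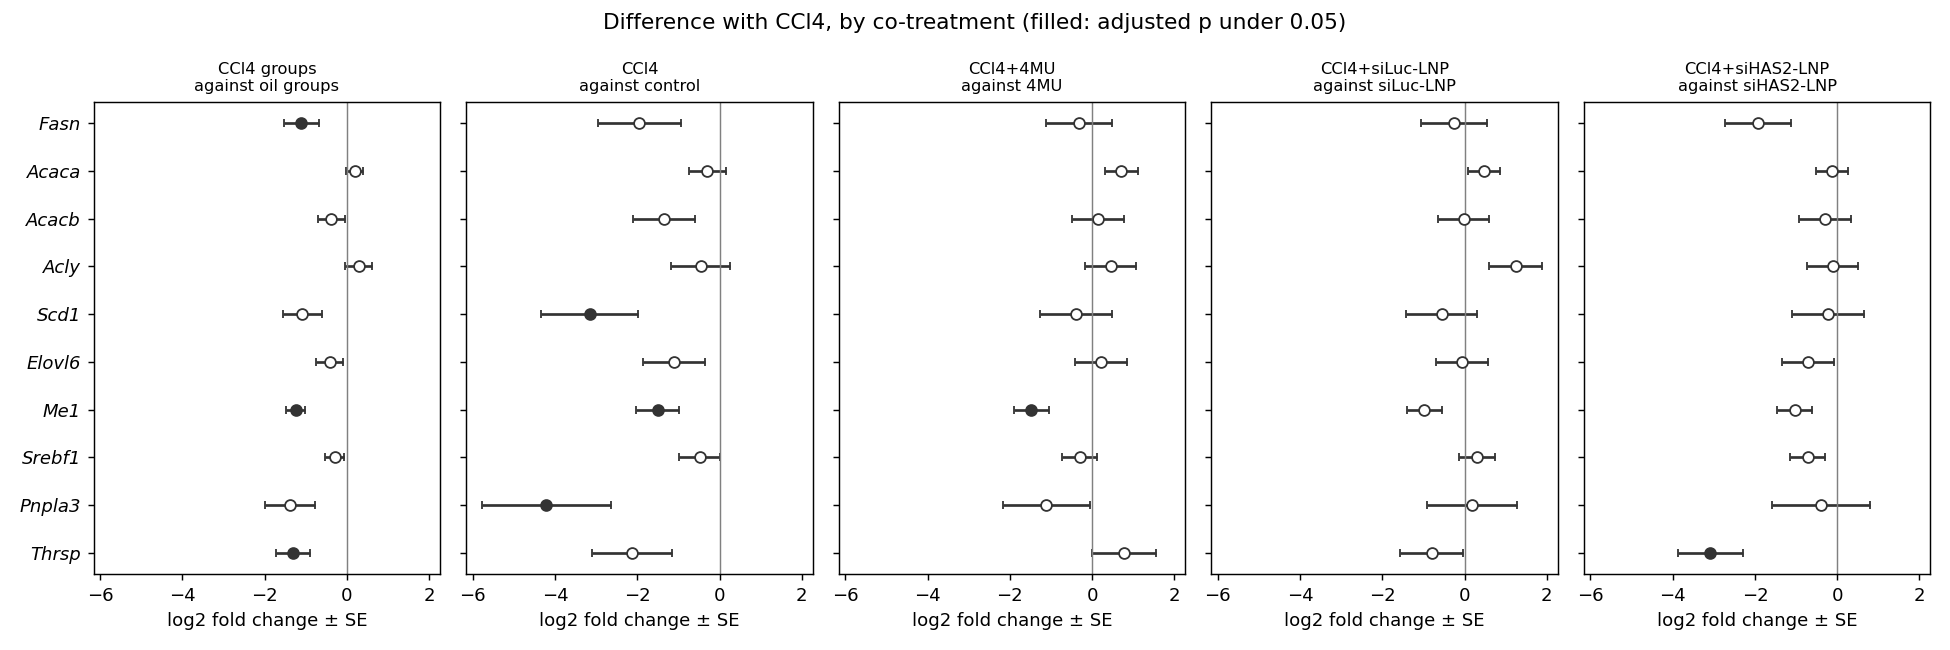
Log2 fold change with CCl4 (point) and its standard error (bar) for each gene, over all groups and within each co-treatment. Filled points passed an adjusted p of 0.05: Fasn, Me1 and Thrsp over all groups, Scd1, Me1 and Pnpla3 against control, Me1 with 4MU and Thrsp with siHAS2-LNP.

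In CCl4 against control, the comparison of the fibrosis model itself, all 10 members had a negative fold change, with a median of -1.43. When scaled by library totals without TMM, 9 did, and Acaca was positive. This sign count was not particular to CCl4. Against the same control mice, all 10 members were also negative in siLuc-LNP without CCl4 (median -0.75), and 8 were in 4MU without CCl4 (median -0.53). In CCl4 against control, 3 of the 10 passed the threshold (Scd1, Me1 and Pnpla3, all lower), beside 34.0% of all genes. None of the 3 passed with limma-voom (adjusted p of 0.0613 to 0.405) or without TMM (adjusted p of 0.0509 to 0.0871). Of 7 hepatocyte markers, Alb (-0.90, SE 0.26, edgeR adjusted p = 0.0105) and Ttr (-1.16, SE 0.32, adjusted p = 0.00705) fell in the same comparison, and their part in the lower members was not tested. Scd1 was at 1123 and 229 CPM in the CCl4 mice and at 1881, 1263, 12578 and 8346 CPM in control mice 1 to 4. The groups did not overlap, although control mouse 2 lay close to CCl4 mouse 1. Scd1 fell by 3.15 on the log2 scale (SE 1.18, edgeR adjusted p = 0.0408). Me1 was at 62.9 and 54.5 CPM against 118, 69.0, 350 and 129 CPM, again with no overlap (adjusted p = 0.0270).

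Pnpla3 was rare, with 16 and 11 counts in the CCl4 mice (0.779 and 0.4145 CPM) and 15, 17, 926 and 50 counts in control mice 1 to 4 (0.763, 1.00, 39.55 and 2.04 CPM). Control mouse 1 lay within the CCl4 values and control mouse 3 far above all others, and the log2 fold change was -4.21 (SE 1.57, adjusted p = 0.0401). Without control mouse 3, none of the 10 members passed, and the fold changes were -1.12 for Pnpla3, -0.83 for Me1 and -2.48 for Scd1, with adjusted p of 0.507, 0.151 and 0.102 (edgeR). None passed without CCl4 mouse 2 either (adjusted p of 0.194 to 0.303), and Scd1 alone passed without CCl4 mouse 1 (adjusted p = 0.0460), while without control mouse 4 Scd1 was lost (adjusted p = 0.0665). The CCl4 group has 2 mice.

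Within the other co-treatments fewer members passed. In CCl4+4MU against 4MU, 1 of 10 did, Me1, beside 23.7% of all genes. It was at 49.3, 29.6, 61.9 and 63.4 CPM in the CCl4+4MU mice and at 107, 137 and 182 CPM in the 4MU mice, without overlap (log2 fold change -1.47, SE 0.42, edgeR adjusted p = 0.0134), and the call was lost without 4MU mouse 3 (adjusted p = 0.0716). The median of the members was -0.08, and 5 were positive and 5 negative. In CCl4+siLuc-LNP against siLuc-LNP, none of 10 passed, beside 24.2% of all genes, with 1 at an unadjusted p under 0.05 (Me1), and DESeq2 called none. Without siLuc-LNP mouse 1, Me1 passed, and with no low-count filter some members did. The median was -0.05, and 4 members were positive (6 without TMM). Of them Acly had the highest value (1.24, SE 0.64, adjusted p = 0.162).

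In CCl4+siHAS2-LNP against siHAS2-LNP, 1 of 10 members passed, Thrsp, beside 12.8% of all genes, and all 10 were negative with a median of -0.54 (8 without TMM, where Acaca and Acly were positive). Thrsp was at 33.3, 19.3, 18.9 and 94.5 CPM in the CCl4+siHAS2-LNP mice and at 233, 162 and 647 CPM in the siHAS2-LNP mice. The groups did not overlap, and Thrsp fell by 3.08 on the log2 scale (SE 0.80, edgeR adjusted p = 0.0113). Without siHAS2-LNP mouse 3 its log2 fold change was -2.28 (adjusted p = 0.0914) and no member passed. Fasn was at 41.2, 102, 85.7 and 479 CPM against 549, 438 and 1019 CPM. CCl4+siHAS2-LNP mouse 4 lay in the range of the other group, and Fasn did not pass (-1.92, SE 0.81, adjusted p = 0.121). Without that mouse, the library of lowest depth, 3 members passed in this comparison.

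Whether a co-treatment changed these genes in fibrotic mice was asked against the CCl4 group, and against each other. No member passed in CCl4+4MU against CCl4, beside 18.3% of all genes, in CCl4+siLuc-LNP against CCl4, beside 0.248%, or in CCl4+siHAS2-LNP against CCl4, beside 14.4% (edgeR). At an unadjusted p under 0.05 there was 1 member in the first (Thrsp) and none in the other two. DESeq2 also called none in these 3 comparisons, while with no low-count filter some members passed in the first 2. With 4MU, 9 of 10 members had a positive fold change (median 0.79), led by Thrsp (2.28, SE 0.97, adjusted p = 0.1002), Pnpla3 (2.03, SE 1.51) and Scd1 (2.02, SE 1.10). Me1 was at -0.20 (SE 0.48). With siLuc-LNP, 9 were positive as well (median 0.53; 7 without TMM), and with siHAS2-LNP 4 were (median -0.16; 2 without TMM). These 3 comparisons share the same 2 CCl4 mice.

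In CCl4+siHAS2-LNP against CCl4+siLuc-LNP, the comparison of the targeting with the non-targeting siRNA, no member passed by edgeR or DESeq2, none had an unadjusted p under 0.05, and 1.09% of all genes passed. With no low-count filter some members passed. All 10 were negative, with a median of -0.72 and standard errors of 0.36 to 1.08. In CCl4+4MU against CCl4+siHAS2-LNP, 1 member passed, Thrsp, which was higher with 4MU, beside 1.22% of all genes. Its values were 233, 55.4, 610 and 784 CPM with 4MU and 33.3, 19.3, 18.9 and 94.5 CPM with siHAS2-LNP. CCl4+4MU mouse 2 lay below CCl4+siHAS2-LNP mouse 4, so the groups overlapped, and the log2 fold change was 3.36 (SE 0.78, adjusted p = 0.0327). The call was lost when CCl4+4MU mouse 3 or 4, or CCl4+siHAS2-LNP mouse 2 or 3, was left out, with adjusted p of 0.0621 to 0.152. Genes of other lists were higher with 4MU in the same comparison. Per1, a clock gene, was at 27.6, 31.1, 30.1 and 32.0 CPM in the CCl4+4MU mice and at 4.42, 6.64, 8.71 and 5.07 CPM in the CCl4+siHAS2-LNP mice, without overlap (log2 fold change 2.27, SE 0.53, edgeR adjusted p = 0.0345), as 1 of 12 clock genes that passed. Pck1 (2.00, SE 0.43), 3 of 7 macrophage markers (Clec4f, Lyz2 and Csf1r) and 1 of 6 duct markers (Krt19) also passed. Their part in the difference in Thrsp was not tested.

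Without CCl4, no member passed in 4MU against control, beside 0.00709% of all genes, in siLuc-LNP against control, beside 0.213%, or in siHAS2-LNP against siLuc-LNP, beside 0.0425%. None had an unadjusted p under 0.05 in these comparisons, and DESeq2 called none. With no low-count filter, 1 member passed in siLuc-LNP against control. The interaction of CCl4 with 4MU passed for no member, beside 5.67% of all genes, that with siLuc-LNP for none, beside 0.00709%, and that with siHAS2-LNP (against siLuc-LNP) for none, beside 0.0354%. Each interaction had 1 member at an unadjusted p under 0.05, and DESeq2 called none. With no low-count filter at least 1 member passed in each interaction.

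These genes differed widely between mice of the same group. The SD of log2 CPM within groups had a median of 0.96 over the members and 0.30 over all tested genes. Pnpla3 (SD 1.73), Scd1 (1.38), Fasn (1.24) and Thrsp (1.19) were more variable than 99.9%, 99.8%, 99.6% and 99.5% of tested genes. Acaca (0.57), Me1 (0.62) and Srebf1 (0.63) were the least variable members, above 87.8%, 90.7% and 91.3%. Scd1 spanned 35.05-fold among the 4 CCl4+siHAS2-LNP mice and 9.96-fold among the controls.

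The members deviated together. Control mouse 3 was the highest control mouse for all 10 members, and its deviation from the group mean had a median of 1.46 on the log2 scale. CCl4+siHAS2-LNP mouse 4 was the highest of its group for all 10 (median deviation 1.71), and siLuc-LNP mouse 1 the lowest of its group for all 10 (-1.10). CCl4+4MU mouse 2 was the lowest of its group for 9 of 10 (-1.46), and control mouse 2, CCl4+siHAS2-LNP mouse 1 and CCl4+siLuc-LNP mouse 3 for 8 of 10 each. In the siHAS2-LNP group the median deviations of the 3 mice lay between -0.35 and 0.44.

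**Figure D3:**
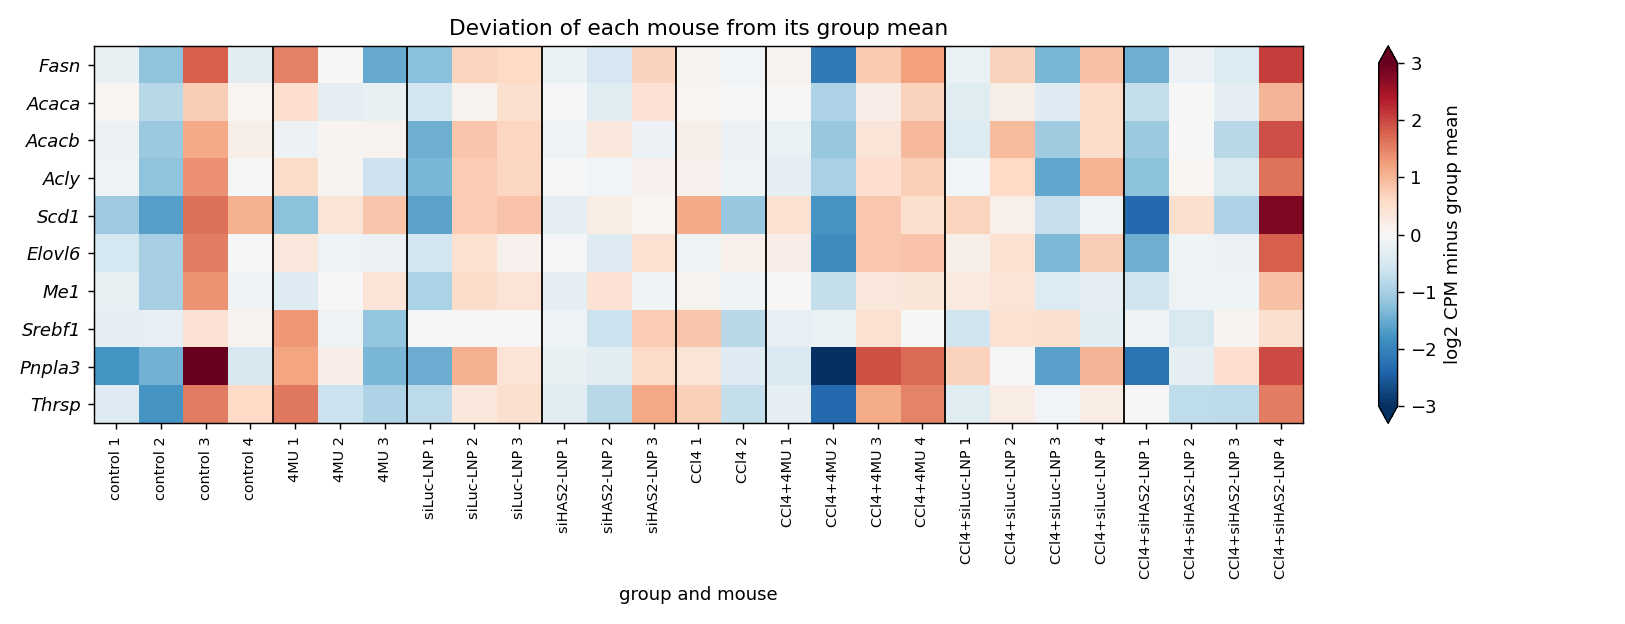
Deviation of each mouse (columns, by group) from its group mean in log2 CPM for each gene (rows), red above and blue below. Control mouse 3 and CCl4+siHAS2-LNP mouse 4 are red in all 10 rows, and siLuc-LNP mouse 1 is blue in all 10.

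This joint variation was tested on deviations from the group means by permutation within groups (100000 resamples, two-sided), separately in the mice given CCl4 and in the others. Among the 9 members other than Srebf1, with 72 relations in one family, all 36 pairs passed by Pearson's r in the 14 mice given CCl4 (33 by Spearman's rho), with a median r of 0.83. In the 13 mice given oil, 21 of 36 passed by r and 18 by rho, with a median r of 0.79. The pairs come from 9 genes in the same mice, so they are not separate results. The share of other gene pairs that would pass was not computed. For Fasn and Acaca, r was 0.97 with CCl4 (rho 0.99, permutation p = 6e-05, adjusted p = 0.0014 for both) and 0.89 with oil (rho 0.86, permutation p = 0.0013 and 0.0025, adjusted p = 0.0037 and 0.007). Without the 2 mice with the most extreme Fasn deviation, r was still 0.89 and 0.80. For Fasn and Elovl6, r was 0.98 with CCl4 and 0.95 without the 2 extreme mice, CCl4+4MU mouse 2 and CCl4+siHAS2-LNP mouse 4. For Fasn and Thrsp with CCl4, r fell from 0.79 to 0.26 when these 2 mice were left out, so that this relation rested on them. The median r over the 36 pairs fell to 0.68 with CCl4 and 0.72 with oil when 2 mice per pair were left out. These were the mice farthest from the median of the first gene of the pair, in the order of the member list. Extremes of the other gene were not considered. Control mouse 3 thus stayed in the oil pairs whose first gene was Acacb or Scd1.

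In the mice given oil, Scd1, Me1 and Acacb varied together. This was not particular to them, as r was 0.89 for Acacb and Acly (rho 0.71, permutation p = 0.024 and 0.057, adjusted p = 0.033 and 0.076). For Acacb and Me1, r was 0.94 (rho 0.93, permutation p = 0.00044 and 0.0011, adjusted p = 0.0027 and 0.0044), and for Scd1 and Me1 0.88 (rho 0.85, permutation p = 0.00045 and 0.001, adjusted p = 0.0027 and 0.0043). Without siLuc-LNP mouse 1 and control mouse 2, r was 0.95 for the former pair and 0.74 for the latter. Control mouse 3 was kept in both, with log2 deviations of 1.13 for Acacb, 1.66 for Scd1 and 1.34 for Me1. The r of these pairs without control mouse 3 was not computed. For Scd1 and Fasn, r was 0.36 (rho 0.28, permutation p = 0.34 and 0.44) and 0.56 without control mouse 3 and 4MU mouse 1. In 4MU mouse 1, Fasn was at 1399 CPM, the highest of its group, and Scd1 at 1305.5 CPM, the lowest. Whether these coefficients differ from each other was not tested.

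The relations of Srebf1, the regulator, with the other members were tested apart. In the 13 mice given oil, 6 of 9 relations passed over the family of 18, by r and by rho. They were Thrsp (r = 0.80, rho = 0.91, permutation p = 0.00063 and 0.0013, adjusted p = 0.0038 and 0.0061), Fasn (r = 0.78, rho = 0.77, permutation p = 0.0016 and 0.0066, adjusted p = 0.0059 and 0.024), Acaca (r = 0.63), Pnpla3 (r = 0.58), Elovl6 (r = 0.52) and Acly (r = 0.48). Those with Acacb, Me1 and Scd1 did not pass, with r of 0.06, -0.07 and -0.13 and rho of 0.15, 0.005 and 0.18. Without 4MU mice 1 and 3, whose Srebf1 was at 962 and 173 CPM, r was 0.80 for Thrsp, 0.64 for Fasn and 0.67 for Acaca, and 0.22, 0.26 and 0.40 for Acacb, Me1 and Scd1, so that the negative signs of Me1 and Scd1 rested on these 2 mice.

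In the 14 mice given CCl4, none of the 9 relations of Srebf1 passed. The highest was again that with Thrsp (r = 0.53, rho = 0.57, permutation p = 0.037 and 0.045, adjusted p = 0.096 and 0.11), and r for Fasn was 0.22. Without the 2 CCl4 mice, r was 0.48 for Thrsp and 0.26 for Fasn. A difference between mice with and without CCl4 was not tested. In CCl4+siHAS2-LNP mouse 4, Fasn was at 479 CPM and Srebf1 at 320 CPM, while in mice 1 to 3 of that group Fasn was at 41.2, 102 and 85.7 CPM and Srebf1 at 212, 165 and 243 CPM. The Fasn values differed 11.6-fold over this group and those of Srebf1 1.93-fold. The counts are per gene, so the transcripts of SREBP-1a and SREBP-1c were not separated, and processing of the SREBP protein was not measured.

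**Figure D4:**
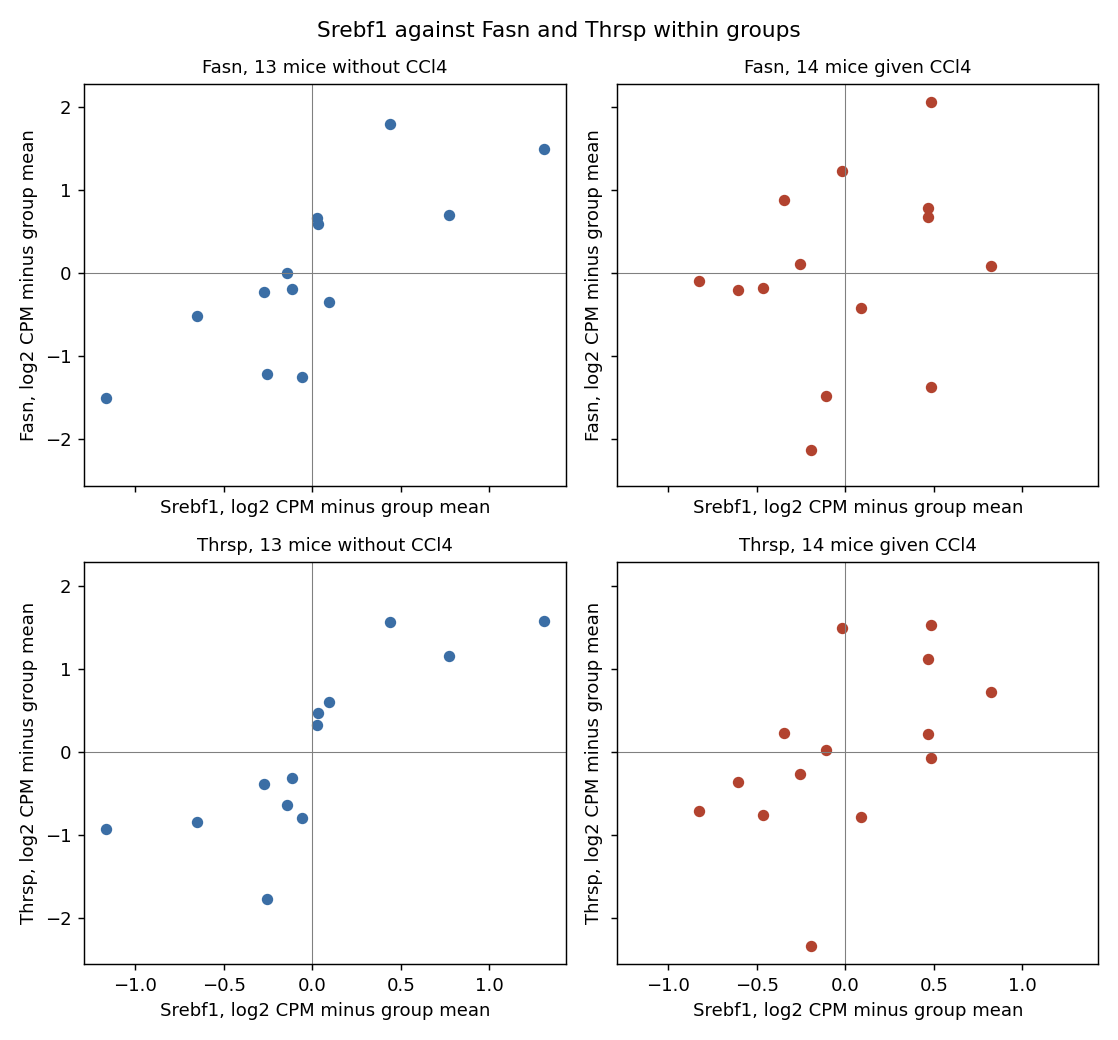
Srebf1 (horizontal axis) against Fasn and Thrsp (vertical axes) as log2 CPM minus the group mean, with 1 point per mouse. For the 13 mice given oil (left) Pearson's r was 0.78 and 0.80, and for the 14 mice given CCl4 (right) 0.22 and 0.53.

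Each member was compared with the mean of the other 9 after removal of the group means. Fasn (r = 0.94), Elovl6 (0.93), Acly (0.92) and Acaca (0.92) were nearest to it and Srebf1 farthest (0.38), over 27 libraries. Among 12707 other tested protein-coding genes, those nearest to the mean of the members on this scale were Gpam (r = 0.90), which starts triglyceride synthesis, Chrna4 (0.89), a nicotinic receptor subunit, Aacs (0.89), which activates acetoacetate for lipid synthesis, Acss2 (0.87), which makes acetyl-CoA from acetate, and Pnpla5 (0.87), a relative of Pnpla3. Without removal of the group means they were Slc25a44 (0.86), a mitochondrial carrier of branched-chain amino acids, Aacs (0.85), Lrrc24 (0.82), Acss2 (0.82) and Chrna4 (0.82). Over all the other tested protein-coding genes the median r was -0.006 with the group means removed and -0.014 without that removal. The named genes were picked by these values, and the libraries share the split by CCl4, so no test is given.

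Genes that vary with time of day and with food also varied between mice of a group. Dbp, an output gene of the circadian clock, was at 99.1, 24.4, 9.52 and 68.9 CPM in control mice 1 to 4 and at 76.5, 1.17 and 2.18 CPM in 4MU mice 1 to 3. Control mouse 3, with the highest members, thus had the lowest Dbp of its group. In 4MU mouse 1, which had the highest Fasn, Thrsp and Srebf1 of its group, Dbp was the highest. CCl4+4MU mouse 2, with the lowest Fasn of its group, had the highest Pck1, a gluconeogenic gene of fasting (2859.8 CPM against 1487.5 to 2039 CPM). None of 12 clock genes passed in the comparison over all CCl4 groups. The part of these genes in the spread of the members was not tested.

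Other genes of the pathway were described from lists, in the comparison over all CCl4 groups. Among 16 regulators of lipogenic transcription, 9 fell and 1 rose, with a median log2 fold change of -0.30. Insig1, which retains SREBP in the endoplasmic reticulum and is itself an SREBP target, fell by 0.90 (SE 0.29, edgeR adjusted p = 0.0117). Mid1ip1, the paralogue of Thrsp, fell by 0.78 (SE 0.22) and Mlxipl, the gene of ChREBP, by 0.67 (SE 0.15). Mbtps1, a protease that releases SREBP, rose by 0.33 (SE 0.08).

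Among 15 genes of carbon and NADPH supply, 8 fell and 3 rose (median -0.34). Acss2 fell by 0.97 (SE 0.22), Khk, the fructokinase, by 0.81 (SE 0.15) and Gckr, the regulator of glucokinase, by 0.79 (SE 0.10). The 3 that rose were Pgd, Taldo1 and H6pd, with 0.45 (SE 0.15), 0.32 (SE 0.09) and 0.27 (SE 0.11).

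Among 14 other elongases and desaturases, 6 fell and 2 rose (median -0.09), and these held the widest changes of all the lists of the pathway. Elovl3 fell by 5.73 on the log2 scale (SE 0.53, edgeR adjusted p = 3.83e-09) and had no counts in 5 of the 27 libraries. Elovl3 and Elovl7 were both rare, with medians of 0.274 and 2.94 CPM and maxima of 6.98 and 8.40 CPM over the 27 libraries. Elovl5 fell by 0.91 (SE 0.21) and Fads1 by 0.66 (SE 0.14). Elovl7 rose by 3.45 (SE 0.23, adjusted p = 7.44e-12), and Scd2, the desaturase that predominates outside hepatocytes, by 1.67 (SE 0.30). Within single co-treatments, Scd2 passed with siLuc-LNP (2.99, SE 0.63), but not in CCl4 against control, with 4MU or with siHAS2-LNP. Scd1 and Scd2 are near relatives, and per the study's methods reads that mapped to several places were not counted. Of 11 genes of malonyl-CoA turnover and control of the carboxylases, 2 fell and 1 rose, and of 7 LXR targets outside lipogenesis 3 fell (Abcg8, Apoe, Abcg5) and 2 rose (Abcg1, Abca1). Among genes of the fasting response, Pck1 and G6pc1 fell and Igfbp1 and Irs2 rose. The shares of the counted lists stand beside the 51.9% of all genes.

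Markers of other cells moved with CCl4 as well. Of 7 hepatocyte markers, 2 fell and 1 rose, and their summed level ranged from 139112 to 214501 CPM with oil and from 87642 to 199447 CPM with CCl4. Of 8 stellate and myofibroblast markers, 6 rose and 1 fell, with sums of 224 to 436 and 329 to 1105 CPM. Of 6 duct markers, 5 rose, with sums of 30.1 to 77.4 and 109 to 693 CPM. Of 7 macrophage markers, 2 rose and 3 fell, and of 6 endothelial markers 3 rose and 1 fell. Of 6 lymphocyte markers, 2 fell. The adipocyte genes Adipoq, Plin1, Lep and Retn had at most 3 counts in any library and Cfd at most 4. Of the 3 adipocyte markers that passed the filter, Fabp4 rose and Lipe fell. Pancreas markers had at most 6 counts. The part of the shift between cell types in the lower Me1, Thrsp and Fasn was not tested.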

How the data were processed

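RNA was sequenced from whole liver of 27 mice. Per the study's methods, the authors trimmed paired reads (Trimmomatic 0.39), aligned them to GRCm39 with HISAT2 and deposited raw counts per gene from featureCounts. The strand setting of the counting is not given in the sources used here, so overlapping genes may share reads. Groups were taken from the sample labels. The 14114 genes whose mean count per library reached 10 were tested with edgeR 4.0.16 (TMM scaling, quasi-likelihood test, 8 groups in 1 fit, Benjamini-Hochberg adjustment, threshold 0.05). R 4.3.3, limma 3.58.1 and DESeq2 1.42.0 served the alternatives, and scipy 1.17.1 the permutation tests. The SE of a log2 fold change was its absolute value divided by the square root of the F statistic of the quasi-likelihood test. The code was tested on simulated data. CPM used TMM-scaled totals, and log2 CPM a prior count of 2. All 10 members were named in every comparison, and of other lists at most 3 genes past the threshold per direction, those with the largest change. The genes most like the members were the 5 with the highest r on each scale. The members and lists were chosen with earlier results of these data known. The 72 relations not involving Srebf1 were added after the data were seen. No library pair within a group was a duplicate. The count over the fasting list is not reported here.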

Additional observations from a re-analysis of the deposited data

Results flagged for a closer look

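Control mouse 3 lay far above the other 3 control mice for Fasn (1639.7 CPM, gap of 0.861 of the group's range) and Pnpla3 (39.55 CPM, 0.967). CCl4+siHAS2-LNP mouse 4 did so in its group for Fasn (479.2 CPM, 0.862) and Acacb (76.78 CPM, 0.838). Of 40 sets of 4 mice, 4 passed the critical value of Dixon's test, and all of them came from these mice. The sets hold the same mice in genes that varied together, and the test used CPM and not log2 CPM. The sets are therefore not separate tests, and their number cannot be set against a chance rate. The library of CCl4+siHAS2-LNP mouse 4 had the lowest total (7044386 counts). The part of depth in its values was not tested.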

How the results depend on the processing

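Of 198 recomputed fold changes of called members, 162 kept direction and call, 36 lost the call and 0 reversed. Of 287 recomputed counts, 250 stayed within 1.5 times. Leaving out 1 mouse at a time gave 2 to 5 members called over all CCl4 groups, 0 to 3 in CCl4 against control, 0 to 1 in CCl4+4MU against 4MU, 0 to 1 in CCl4+siLuc-LNP against siLuc-LNP, 0 to 3 in CCl4+siHAS2-LNP against siHAS2-LNP and 0 to 1 in CCl4+4MU against CCl4+siHAS2-LNP. With no low-count filter these comparisons gave 7, 7, 2, 2, 4 and 5 members, CCl4+4MU against CCl4 gave 4, CCl4+siLuc-LNP against CCl4 1, CCl4+siHAS2-LNP against CCl4+siLuc-LNP 3, siLuc-LNP against control 1, and the interactions 4 (4MU), 3 (siLuc-LNP) and 1 (siHAS2-LNP). The shares of all genes without that filter are not given here, so whether these counts stand apart from such shares is not known. CCl4 against control gave 0 with limma-voom, 0 without TMM, and 1 when the fit held the compared groups alone. CCl4+siHAS2-LNP against siHAS2-LNP gave 3 with limma-voom and 2 when fitted alone, and CCl4+4MU against CCl4+siHAS2-LNP 0 when fitted alone. Without control mouse 3 and CCl4+siHAS2-LNP mouse 4 together, an alternative chosen after seeing the data, CCl4 against control gave 1 and CCl4+siHAS2-LNP against siHAS2-LNP 4. The causes were not tested.

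With the replicate number as a block, CCl4 against control gave 0 members. Same-numbered mice of different groups did not deviate together (83 pairs, r from -0.32 to 0.293), so the numbers were not taken as pairs. Scaling by library totals without TMM moved the median of all genes by -0.42 to 0.41 on the log2 scale, depending on the comparison. The CCl4 group of 2 mice and the spread within groups limit the size of change that passed.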
